A study of Mus musculus with 54 samples.

Results

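The subject is 100 array features whose aorta-to-embryo ratio was lower at week 40 than at week 0 on normal chow in both mouse strains. For each strain, the mean of the 3 chow arrays at week 0 was subtracted from the mean of the 3 chow arrays at week 40, the larger of both differences was taken as the score, and the 100 lowest scores were kept. They are 100 of the 21179 features tested and of the 21446 in the deposited table. The members were chosen by the log ratios of the 12 chow arrays of weeks 0 and 40, so those arrays are described below without a test, and tests rest on the other 42 arrays.

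Aorta total RNA was measured on 54 arrays of 2 colours, with total RNA of mouse embryos at embryonic day 17.5 as the second channel of every array. The mice were C57Bl/6 (C57) or C3H/HeJ (C3H). Each strain had a baseline group, called week 0 and labelled chow, and groups at weeks 4, 8, 24 and 40 of normal chow and of a high-fat diet. Week 8 follows the titles, since another label field has a different number there. With 3 arrays for each combination of strain, diet and week, numbered 1 to 3, there are 18 groups. No age, sex, transgene or drug is named in the labels, and all groups share the embryo RNA as their comparison. The labels do not tell if replicate arrays were made from different mice, from pooled mice or from the same RNA, so a p-value here reflects array-to-array spread that may be technical.

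The aorta is built mainly of smooth muscle layered between elastic sheets, lined by endothelium and wrapped in connective tissue and fat. It keeps growing after birth, and the making of its elastic and collagen matrix is known to slow as a young vessel matures. C57Bl/6 mice are known to form fatty streaks in the aorta on an atherogenic diet, whereas C3H/HeJ mice, which also carry an inactive form of the receptor gene Tlr4, are known to resist them. An aorta sample is a bulk tissue, so fewer cells of a type and less RNA per cell cannot be told apart in any value below.

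Values are in deposited log ratio units, most likely log10, and the sources used here give neither the base nor the direction of the ratio. Were embryo divided by aorta, all signs would be the opposite, and the 100 features would be rising ones. Features are given by their number in the deposited table because the gene names of the platform annotation were not borne out by the values. The ratios of 343 pairs of features listed under the same sequence accession correlated at -0.0472, and the feature listed as the smooth muscle gene Acta2 had a mean ratio of -0.02 in aorta against embryo. The tissue could therefore not be checked against its markers, and no gene is named for any of the 100.

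Some arrays stood apart before any group was compared. The SD over features was 0.160 to 0.1996 on 5 arrays and 0.225 to 0.305 on the other 49. Of the 5, 4 were C57 arrays on chow, namely number 3 at weeks 4 and 24, number 2 at week 8 and number 1 at week 40, and the fifth was number 2 of C3H at week 4 of the high-fat diet. The arrays numbered 3 also shared deviations from their group means, with a median correlation of 0.557 between any 2 of them. Over all numbers, arrays of the same number correlated at a median of 0.369, and 48 of 54 correlated best with their own number. Results that rest on the 5 arrays of small spread or on the arrays numbered 3 are given with and without them. Their part in any difference was otherwise not tested.

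The scores of the 100 features ran from -0.63 to -0.19 with a median of -0.25. The score was below -0.3 for 33 features and below -0.4 for 12. The list has no natural edge: features 18402, 3136 and 5807, just inside it, scored -0.189, -0.189 and -0.188, and features 19632, 1502 and 5976, just outside, scored -0.187, -0.185 and -0.184. As a description of the arrays that chose the list, the median difference between week 40 and week 0 was -0.28 in C57 and -0.28 in C3H. limma called 12 of the 100 lower in C57, where 0.0614% of all features were called lower, and 14 in C3H, where 0.0755% were, with 11 called in both. Nothing is read from these counts, since the same arrays chose the features.

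The 10 lowest scores belonged to features 299, 11462, 2868, 4153, 6685, 1087, 22474, 22451, 15762 and 6999, with scores from -0.63 to -0.45. They differed widely in level: feature 22451 had ratios above 1 on all 6 week 0 arrays, while feature 1087 was below -0.7 on all of them. Feature 299, with the lowest score, read 0.25, 0.24 and 0.04 on the C57 arrays 1 to 3 at week 0 and 0.39, 0.14 and 0.05 on the C3H arrays. On chow its C57 values were -0.01, -0.16 and -0.44 at week 4, -0.10, -0.14 and -0.42 at week 8, and -0.49, -0.40 and -0.70 at week 24. The array numbered 3 was the lowest of its group each time, and weeks 4 and 24 overlapped only through the week 4 array of that number. In C3H the chow values were -0.06, 0.06 and -0.21 at week 4 and -0.42, -0.25 and -0.67 at week 24, with no overlap between these weeks.

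Fed the high-fat diet, C3H mice gave feature 299 values of 0.10, 0.09 and -0.10 at week 4 and -0.37, -0.38 and -0.39 at week 40, so that all 3 later arrays lay below all 3 earlier ones. In C57 it read -0.20, -0.35 and -0.59 at week 4 and -0.38, -0.49 and -0.38 at week 40, and the groups overlapped. The C57 values at week 4 of the diet were thus already below every C3H value of that week. At week 40 of chow, feature 299 stood at -0.48, -0.49 and -0.69 in C57 and at -0.38, -0.36 and -0.58 in C3H.

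Feature 2868 had the same course at a higher level. Its C3H chow values were 0.61, 0.74 and 0.51 at week 4 and 0.25, 0.34 and 0.04 at week 24, and its C57 chow values were 0.69, 0.64 and 0.15 at week 4 and 0.21, 0.29 and -0.06 at week 24. Its C3H values on the high-fat diet were 0.87, 0.80 and 0.52 at week 4 and 0.39, 0.46 and -0.01 at week 40. The C3H groups did not overlap on either diet, while the C57 week 4 chow array numbered 3 lay below 2 of the week 24 arrays. In C57 on the high-fat diet it read 0.52, 0.35 and 0.23 at week 4 and 0.35, 0.23 and 0.03 at week 40, with overlap.

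Feature 11462 read 0.82, 0.73 and 0.50 in C3H at week 4 of the high-fat diet and 0.43, 0.36 and 0.12 at week 40. Feature 4153 read 0.20, 0.18 and -0.01 at the first of these times and -0.35, -0.27 and -0.62 at the second. For both features the C3H arrays of week 40 all lay below those of week 4. In C57 feature 4153 read -0.20, -0.33 and -0.45 at week 4 of that diet and -0.26, -0.36 and -0.48 at week 40, which differ by less than the spread between arrays.

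In the main fit, which ignores the replicate number, feature 1087 was the only one of the 100 that limma called in a test of change with time. Fits that called other features are given below. In C3H on the high-fat diet it read -0.89, -0.81 and -1.02 at week 4 and -1.36, -1.46 and -1.32 at week 40. All 3 later arrays lay below all 3 earlier ones, and the values of week 8, at -1.39, -1.38 and -1.30, were already at the later level. The C3H difference was -0.48 (SE 0.0817, n = 3 arrays a week), with an adjusted p of 0.00659 from limma over all 21179 features. In C57 it read -1.12, -1.11 and -0.99 at week 4 and -1.31, -1.24 and -0.96 at week 40, with overlap. The mean of both strains fell by 0.29 (SE 0.0578, limma adjusted p = 0.0253).

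The direction of feature 1087 held under each alternative run, but its call did not. Without the C3H high-fat array numbered 2 at week 4, one of the 5 arrays of small spread, the C3H difference was -0.43 with a limma adjusted p of 0.112. The C3H call was also lost without array 1 at week 4 (adjusted p = 0.0616 by limma) and without array 2 at week 40 (adjusted p = 0.0535 by limma). Fitting only the arrays of the comparison, which leaves few arrays to estimate the spread, lost it too, as did quantile normalization and scaling the arrays to one spread, each with a limma adjusted p of at least 0.401. It was kept with a term for the arrays numbered 3 (limma adjusted p = 0.000177) and with numbers 1 and 2 only (limma adjusted p = 0.002003). The call on the mean of both strains was lost without any of 6 arrays, namely C57 array 1 at week 4 and at week 40, C57 array 3 at week 4, C3H array 2 at both weeks and C3H array 1 at week 40, with limma adjusted p from 0.0573 to 0.121.

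**Figure D1:**
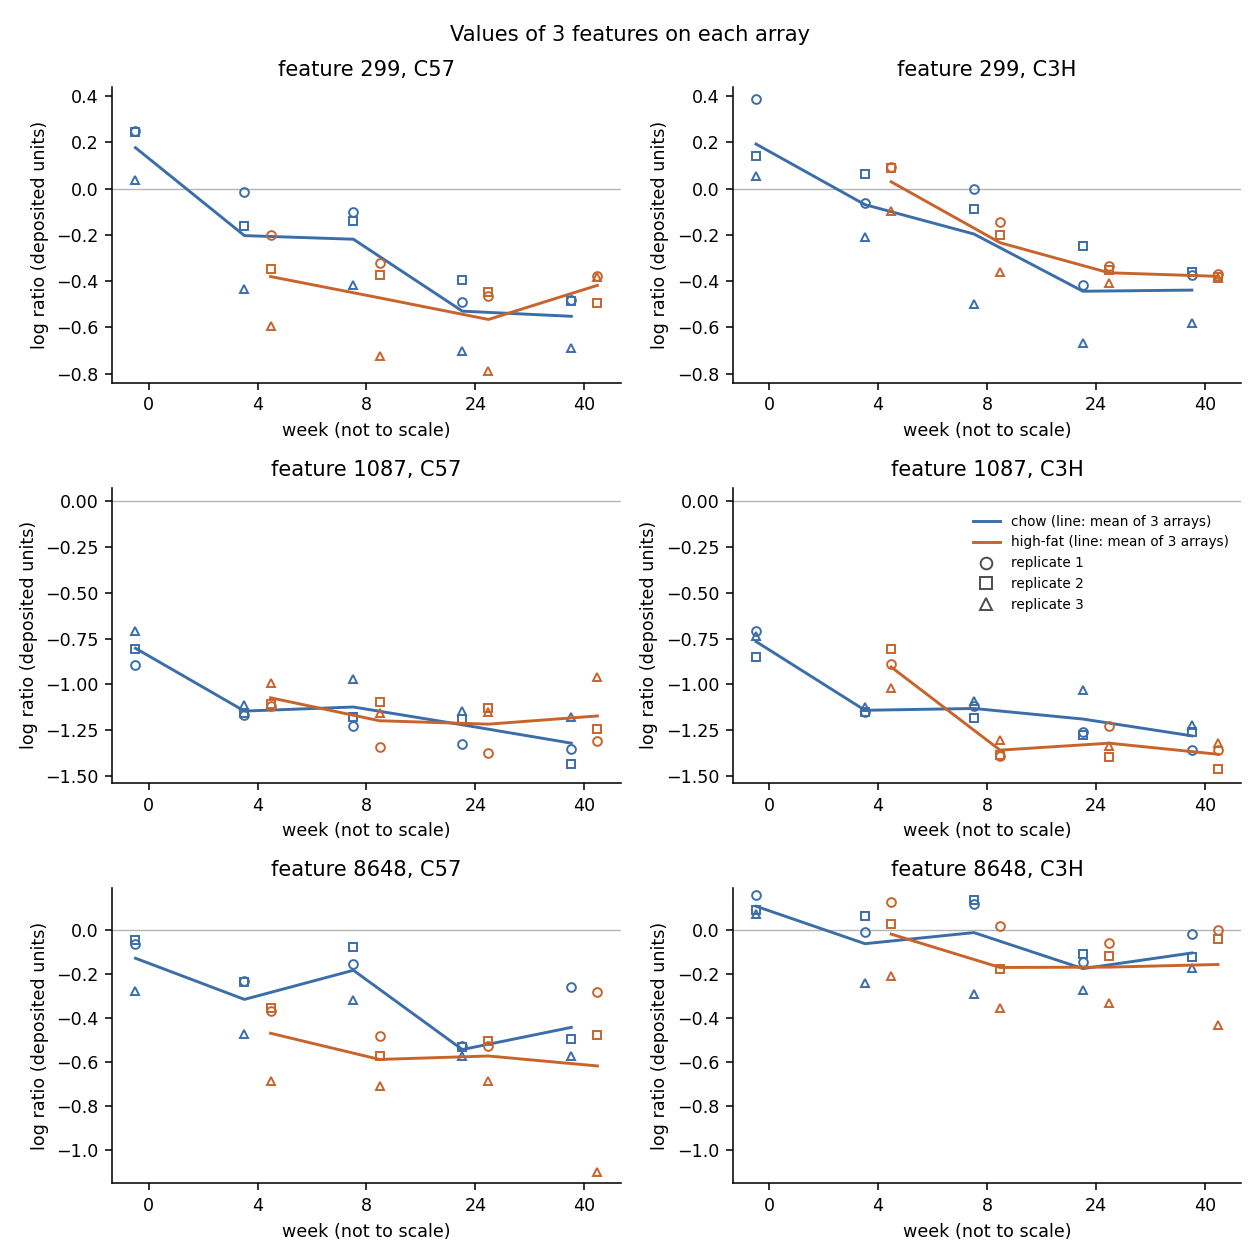
Log ratio of features 299, 1087 and 8648 on each array (deposited units) against week, which is not drawn to scale, with C57 on the left, C3H on the right, and lines through the mean of the 3 arrays of a group. Feature 1087 in C3H goes from about -0.90 at week 4 of the high-fat diet to -1.36 at week 8, and feature 8648 lies lower in C57 than in C3H on the high-fat diet.

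The first comparison asked whether the features chosen at weeks 0 and 40 also declined between weeks 4 and 24 on chow. Averaged over both strains, 91 of the 100 were lower at week 24 than at week 4, where 53.8% of all tested features were lower. Their median difference was -0.11, with an interquartile range from -0.16 to -0.07, against a median of -0.0035 over all features. No single feature among the 100 passed the limma test, and 0.00472% of all features were called lower. At an unadjusted p under 0.05 there were 21 of the 100 against 2.20% of all features. So the shift was shared by most of the list, and no member of it was called on its own in this fit, which ignores the replicate number. With a term for the arrays numbered 3, described below, 7 were called lower, against 0.0661% of all features.

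Each strain gave a shift of its own. In C57, 85 of the 100 were lower at week 24 than at week 4 of chow, with a median difference of -0.08, against 51.1% of all features. In C3H, 92 were lower, with a median of -0.14, against 54.02% of all features. limma called 0 of the 100 in either strain, with 0% of all features called lower in each, and at an unadjusted p under 0.05 it counted 6 of the 100 in C57, against 0.637% of all features, and 13 in C3H, against 2.36%. All 3 week 24 arrays lay below all 3 week 4 arrays for 10 of the 100 in C57, against 1.81% of all features, and for 18 in C3H, against 2.7%. Feature 17636, named after its values were seen, did so in both strains, as did 0.127% of all features.

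The 3 largest decreases among the 100 on chow, picked after their values were seen, were those of features 2868, 299 and 3910, with mean differences of -0.38, -0.35 and -0.35 and a limma adjusted p of at least 0.608. The largest increases were 0.13 for feature 13283 and 0.10 for feature 12572. The median shift in C57 was -0.04 without the C57 week 4 array numbered 2, and the C3H median was -0.05 without the C3H week 4 array numbered 2. Without the 5 arrays of small spread, 92 of the 100 were lower on the mean of both strains, with a median of -0.09, and 1 was called. The shares of all features are not given for that fit, so these counts have no background beside them.

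Weeks 40 and 4 of the high-fat diet were compared on arrays that had no part in the choice. Averaged over both strains, 84 of the 100 were lower at week 40, with a median difference of -0.08, where 49.9% of all features were lower. limma called 1 of the 100 lower, feature 1087, and 0.0189% of all features. At an unadjusted p under 0.05 it counted 28 of the 100, against 5.73% of all features. Without the 5 arrays of small spread, 76 were lower, the median was -0.06 and none was called. For that fit, too, the shares of all features are not given.

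In C57 on the high-fat diet, 78 of the 100 were lower at week 40 than at week 4, with a median of -0.09, against 46.1% of all features. limma called 0 of the 100 there and 0.0142% of all features lower, with 22 of the 100 at an unadjusted p under 0.05 against 6.47% of all features. In C3H, 69 were lower, with a median of -0.12, against 52.8% of all features. There feature 1087 was the only feature called lower, which is 0.00472% of all tested, and 36 of the 100 had an unadjusted p under 0.05 against 7.95% of all features. The C3H median is one of the values that moved most, being -0.07 without the 5 arrays of small spread and between -0.19 and -0.05 when 1 array was left out.

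Groups that did not overlap were also counted on this diet. All week 40 arrays lay below all week 4 arrays for 6 of the 100 in C57, against 2.98% of all features, and for 25 in C3H, against 3.81%. Features 3910 and 20545, named after their values were seen, did so in both strains, as did 0.118% of all features. Feature 3910 had the largest mean difference of the 100 on this diet, at -0.55 (SE 0.139), but did not pass the test, with a limma adjusted p of 0.126.

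**Figure D2:**
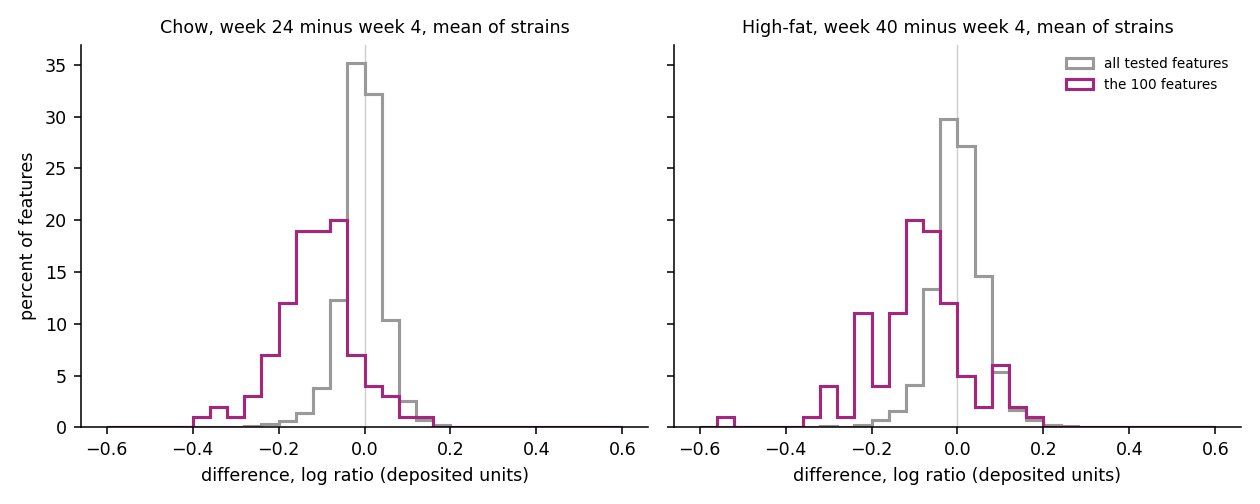
Percent of features (vertical axis) by the size of their difference in deposited log ratio units (horizontal axis), for chow week 24 minus week 4 on the left and high-fat week 40 minus week 4 on the right, each the mean of both strains. The 100 features (purple) lie to the left of all tested features (grey), with medians of -0.11 and -0.08.

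The calls depended strongly on how the arrays numbered 3 were treated. When limma was given a term for these arrays, more features passed. Every group holds an array numbered 3, so the term could not move the difference of a fully measured feature. The medians of -0.11 on chow and -0.08 on the high-fat diet were thus all but fixed by the design. What the term could change were the standard errors and p-values. For the mean of both strains on chow, 7 of the 100 were then called lower, against 0.0661% of all features. For the high-fat diet the count was 16 of the 100, against 0.25% of all features. The 7 were features 299, 11462, 2868, 4153, 22474, 1491 and 21428, and the first 6 of them were among the 16 as well.

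By strain, the same term gave 1 of the 100 on chow in C57 (0.00944% of all features), which was feature 2868, and 4 in C3H (0.0378%). For the high-fat diet it gave 1 in C57 (0.203%), which was feature 13846, and 22 in C3H (0.34%). For the mean of both strains on chow, feature 2868 had the smallest adjusted p of the 100, with a difference of -0.38 (SE 0.0435, limma adjusted p = 3.17e-06). The 10 lowest scores gave 5 of the 7 on chow, 8 of the 16 on the high-fat diet and 9 of the 22 in C3H. The arrays numbered 1 and 2 alone, without any of the arrays numbered 3, gave 4 of the 100 on chow (0.0378% of all features), 13 on the high-fat diet (0.151%) and 15 in C3H on that diet (0.246%). In C3H on chow they gave 0 of the 100, where the term had given 4, and called 0.00472% of all features lower. Of the 16, 12 were among those 13, and of the 22, 14 were among those 15.

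Taking the arrays of 1 number at a time, the median difference of the 100 on chow was -0.11, -0.16 and -0.09 in numbers 1, 2 and 3, averaged over both strains. The same medians on the high-fat diet were -0.06, -0.09 and -0.09. Each number thus gave a lower median at the later week on both diets. As a description of the arrays that chose the list, scores from numbers 1 and 2 alone gave another list that shares 66 of the 100. On the arrays numbered 3, which that list did not use, 90 of its 100 features were lower at week 40 than at week 0 of chow in each strain. The median differences were -0.26 in C57 and -0.30 in C3H, where 47.9% and 49.4% of all features were lower. These values belong to that other list, and nothing is read from them about the 100.

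The 4 comparisons of change with time by strain and diet use different arrays. Of the 100, 40 were lower at the later week in all 4, 46 in 3, 12 in 2 and 2 in 1, and none was higher in every one. Over all tested features, 7.18% were lower in all 4 and 6.70% in none. Across the 100, the differences of both strains on chow correlated at r = 0.521, against 0.258 over all features. The correlation between strains on the high-fat diet was -0.486 across the 100 and -0.124 over all features. These correlations are across features that were measured on the same arrays and are not independent.

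The median differences varied between steps, and on chow the steps that use the choosing arrays cannot be set beside the others as a course in time. On chow, the median difference from week 0 to week 4 was -0.17 in C57 and -0.14 in C3H, beside -0.28 in each strain from week 0 to week 40. These steps use arrays that chose the list and are a description. The steps between the other chow weeks were 0.03 (weeks 4 to 8) and -0.11 (weeks 8 to 24) in C57, and -0.04 and -0.10 in C3H. So in C57 the list was no lower at week 8 than at week 4, and in both strains it was lower at week 24 than at week 8. From week 24 to week 40 the median differences were -0.04 and -0.03, a step that again uses arrays that chose the list.

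Under high-fat feeding, the step from week 4 to week 8 was -0.10 in C57, with 88 of 100 lower, against 54.9% of all features. In C3H it was -0.12, against a median of -0.017 over all features. The C3H count of 63 lower was close to the share of all features, 58.02%. Between weeks 8 and 24 the step was -0.02 in C57 and -0.06 in C3H, and over the last interval it was 0.01 and 0.03. On this diet the difference between weeks 40 and 4 thus lay between weeks 4 and 24. The median of the 100 on single arrays ran from 0.13 to 0.34 at week 0 and from -0.20 to 0.21 on the 48 later arrays. The highest of these later values, 0.21, was the C3H chow array numbered 2 at week 4.

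**Figure D3:**
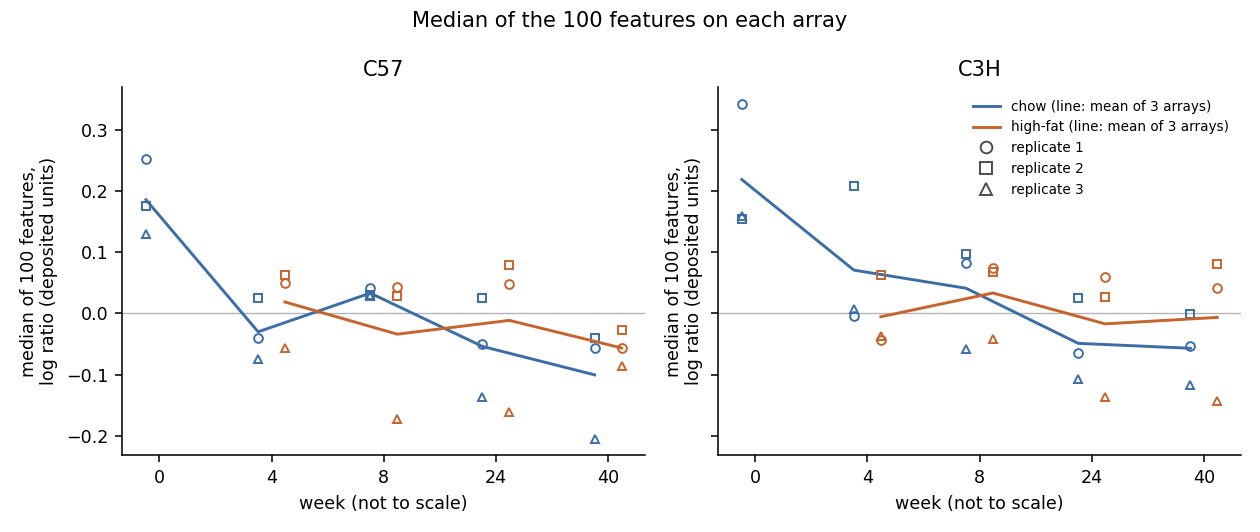
Median log ratio of the 100 features on each array (vertical axis, deposited units) by week (horizontal axis, not to scale) for C57 on the left and C3H on the right. Lines join the means of 3 array medians on chow (blue) and on the high-fat diet (orange), and the arrays numbered 3 (triangles) lie low in most groups after week 0.

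High-fat and chow arrays were compared over weeks 4, 8 and 24, which leaves out the arrays that chose the list. In C57, 57 of the 100 were lower and 43 higher on the high-fat diet, with a median difference of -0.02. Of all features, 52.7% were lower. limma called 0 of the 100, and of all features it called 0.0661% lower and 0.0283% higher. At an unadjusted p under 0.05 it counted 26 of the 100, against 7.31% of all features. The 2 large sets described below went opposite ways there: 22 of 23 features were lower in the first, and all 19 were higher in the second. With the term for the arrays numbered 3, limma called 14 of the 100 lower on the high-fat diet in C57, against 1.71% of all features, and 2 higher, against 0.335%. With numbers 1 and 2 only it called 6 lower, against 1.04%. In C3H, 49 were lower and 51 higher, with a median of 0.00062, and 51.9% of all features were lower. limma called 0 of the 100, and of all features it called 0.0425% lower and 0.156% higher. At an unadjusted p under 0.05 it counted 2 of the 100, against 7.78% of all features. Week by week, the C57 median was 0.03 at week 4, -0.11 at week 8, when 71 of the 100 were lower on the high-fat diet, and 0.01 at week 24. The C3H medians were 0.01, -0.03 and 0.03. Rescaling the arrays to one spread or to the same quantiles turned the C57 median to 0.03 and 0.02.

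The change from week 4 to week 24 was tested for a difference between diets. The median of that difference over the 100 was 0.03 in the mean of both strains, with 42 lower and 58 higher. limma called 0 of the 100 and 0 of all features, with 4 of the 100 at an unadjusted p under 0.05 against 1.001% of all features. A p that misses the threshold does not show that the diets act alike on these features.

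The strains were then compared on each diet. On chow at weeks 4, 8 and 24, 63 of the 100 were lower in C57 than in C3H, against 53.2% of all features. The median difference was -0.02. At an unadjusted p under 0.05 limma counted 3 of the 100, fewer than the 10.8% of all features. It called 1 of the 100 lower in C57, as it did 1.41% of all features. That was feature 13846, which ranged from -0.92 to -0.60 with a median of -0.72 over the 9 C57 arrays and from -0.68 to -0.35 with a median of -0.55 over the 9 C3H arrays. The ranges overlapped between -0.68 and -0.60, and the difference was -0.20 (SE 0.0524, limma adjusted p = 0.0153). The call was lost without the C57 array numbered 3 at week 8 (limma adjusted p = 0.0536), without the 5 arrays of small spread (limma adjusted p = 0.0748) and with series as a random block (limma adjusted p = 0.455), and it was kept in the other 25 of 28 alternatives.

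Over weeks 4, 8, 24 and 40 of the high-fat diet, 56 of the 100 were lower in C57, against 52.9% of all features. The median was again -0.02. At an unadjusted p under 0.05 limma counted 24 of the 100, about the same share as the 24.4% of all features. It called 8 of the 100 lower in C57, against 6.31% of all features, and 1 higher, against 4.72%. How the share among the 100 stood to that of all features depended on the fit. With series as a random block, 2 of the 100 were called lower, against 0.534% of all features, and 0 higher, against 1.19%. With the term for the arrays numbered 3, 25 were called lower, against 14.9%, and 3 higher, against 9.84%. Without the C3H array numbered 3 at week 40, 13 were called lower, against 5.95%, and 1 higher, against 4.72%.

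Feature 8648 had the largest difference between the strains on the high-fat diet. Its 12 C57 arrays ran from -1.10 to -0.28 with a median of -0.52, and its 12 C3H arrays ran from -0.43 to 0.13 with a median of -0.09. The difference was -0.43 (SE 0.0696, limma adjusted p = 1.83e-05), and it was called in all 34 alternatives run. On chow the same feature had medians of -0.32 in C57 and -0.11 in C3H, a difference of -0.26 with a limma adjusted p of 0.0561.

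Feature 10911 ran from -0.05 to 0.22 with a median of 0.09 over the 12 C57 high-fat arrays and from 0.13 to 0.57 with a median of 0.29 over the 12 C3H arrays. The difference was -0.23 (SE 0.0430, limma adjusted p = 0.000229), and it too was called in all 34 alternatives. Feature 16936, with medians of 0.07 and 0.25, differed by -0.22 (limma adjusted p = 0.0219) and was called in 29 of 34. Feature 11291, with medians of 0.26 in C57 and 0.01 in C3H, was the one called higher in C57, at 0.25 (SE 0.0836, limma adjusted p = 0.0435), and was called in 15 of 34.

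The change between weeks 4 and 40 on the high-fat diet was tested for a difference between the strains. Over the 100 the median of C57 minus C3H was 0.06, with 45 lower and 55 higher. limma called 0 of the 100, with 32 at an unadjusted p under 0.05 against 8.44% of all features. The sign of the median was not stable: it was -0.0083 after quantile normalization and -0.0116 without the C3H array numbered 3 at week 40. Without that array, 14 of the 100 were called, against 2.23% of all features. Without the C57 array numbered 3 at week 40, 8 were called, against 0.84%, and with series as a random block 16 were, against 2.24%. The median over the 100 hid features that went opposite ways, which are described next.

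The 100 were compared with one another by their correlation over the 42 arrays that did not choose them. Among 4950 pairs the median r was 0.158, against -0.00069 among all features, and 129 pairs, 2.61%, reached 0.9, against 0.264% among all features. Features that share a list chosen for the same decline share these arrays, and the correlations are a description. Joining pairs at 0.9 or above placed 48 of the 100 in 5 sets, of 23, 19, 2, 2 and 2 features. These sets were made after the values were seen, so their differences are given without a test of the set. Features of a set were joined because they followed one another on these same arrays. Signs and calls shared within a set are therefore not separate results.

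The largest set holds 23 features, among them 299, 11462, 2868, 4153 and 22474 of the 10 lowest scores, with a median r of 0.845 within the set. A further 131 features outside the 100 reached 0.9 with the median of the set over the 42 arrays. On chow, all 23 were lower at week 24 than at week 4 in each strain, with medians of -0.13 in C57 and -0.18 in C3H. All 23 were lower at week 40 than at week 4 of the high-fat diet in C3H, with a median of -0.17, but 14 were lower and 9 higher in C57, with a median of -0.03. In C57, 22 of the 23 were lower on the high-fat diet than on chow over weeks 4, 8 and 24, with a median of -0.12, and in C3H the median was -0.0026.

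The array values of this set show where its strains parted. The C57 high-fat group averaged 0.0049 at week 4 and 0.0059 at week 40, near its level throughout, while the C3H high-fat group averaged 0.27 ± 0.16 (SD, n = 3) at week 4 and 0.11 ± 0.18 (SD, n = 3) at week 40. At week 0 the groups averaged 0.27 and 0.31. In every group the array numbered 3 was the lowest of the 3. The spread within groups was therefore as large as most differences between weeks.

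The second set holds 19 features, with a median r of 0.888 and best score at rank 23 of the 100. It includes features 9290, 15766, 8799, 13855, 2024 and 20115, and 24 features outside the 100 reached 0.9 with the median of the set. Its high-fat values went opposite ways in the strains: all 19 were lower at week 40 than at week 4 in C57, with a median of -0.37, and all 19 were higher in C3H, with a median of 0.35. The strain difference ran from -1.04 to -0.47 with a median of -0.75. Over weeks 4, 8 and 24, all 19 were higher on the high-fat diet than on chow in C57, with a median of 0.20. In C3H 12 were higher and 7 lower, with a median of 0.01. None was called by limma in the main fit, the smallest adjusted p being 0.139 for feature 13855. Without the C3H array numbered 3 at week 40, 13 of the 19 were called lower, against 1.97% of all features. Without the C57 array numbered 3 at week 40, 7 were, against 0.765%, and with series as a random block 10 were, against 1.49%. With the term for the arrays numbered 3, 0 were, against 0.0803%. Because the 19 were joined for following one another on these arrays, such counts repeat a shared pattern. They give no support to the set beyond that pattern.

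The course of this set by week was not a steady one. The C3H group means on the high-fat diet were -0.05, 0.62, 0.22 and 0.27 at weeks 4, 8, 24 and 40, with SDs over the 3 arrays of 0.0893, 0.173, 0.0773 and 0.256. In C57 they were 0.50, 0.32, 0.35 and 0.15, with SDs of 0.234, 0.108, 0.167 and 0.244. The C3H arrays of week 4 lay between -0.15 and 0.03, below all 3 week 8 arrays of that strain, which lay between 0.43 and 0.75. On chow at week 4 the 3 arrays of C3H ran from -0.03 to 0.66 and those of C57 from -0.13 to 0.47. A spread that wide within a group is as large as the differences that chose these features, which were -0.25 in C57 and -0.24 in C3H at the median.

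**Figure D4:**
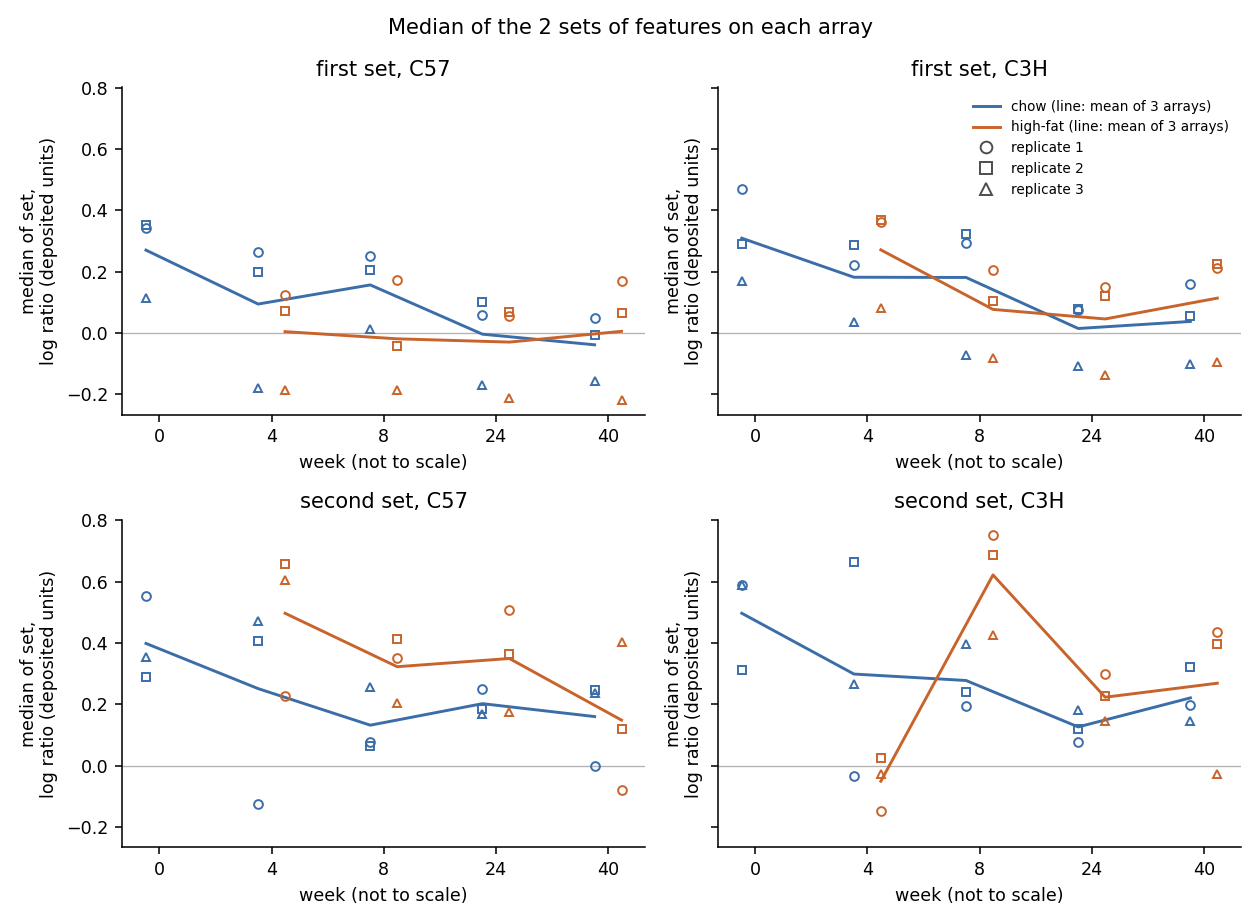
Median log ratio of the set of 23 features (top) and of the set of 19 (bottom) on each array (vertical axes, deposited units) by week (horizontal axes, not to scale), for C57 on the left and C3H on the right, with lines through the means of the 3 arrays. The second set in C3H on the high-fat diet (orange) goes from -0.05 at week 4 to 0.62 at week 8, and its 3 chow arrays at week 4 run from -0.03 to 0.66.

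The medians of both sets correlated at -0.187 over the 42 arrays. The remaining 58 features, which include 1087, 6685, 22451, 15762 and 6999, were joined to neither of the 2 large sets. On chow, 50 of the 58 were lower at week 24 than at week 4 in the mean of both strains, with a median of -0.07. For the high-fat diet 49 were lower at week 40 than at week 4, with a median of -0.11, and the medians by strain were -0.08 in C57 and -0.14 in C3H. Lower values at the later week were thus not limited to the sets.

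**Figure D5:**
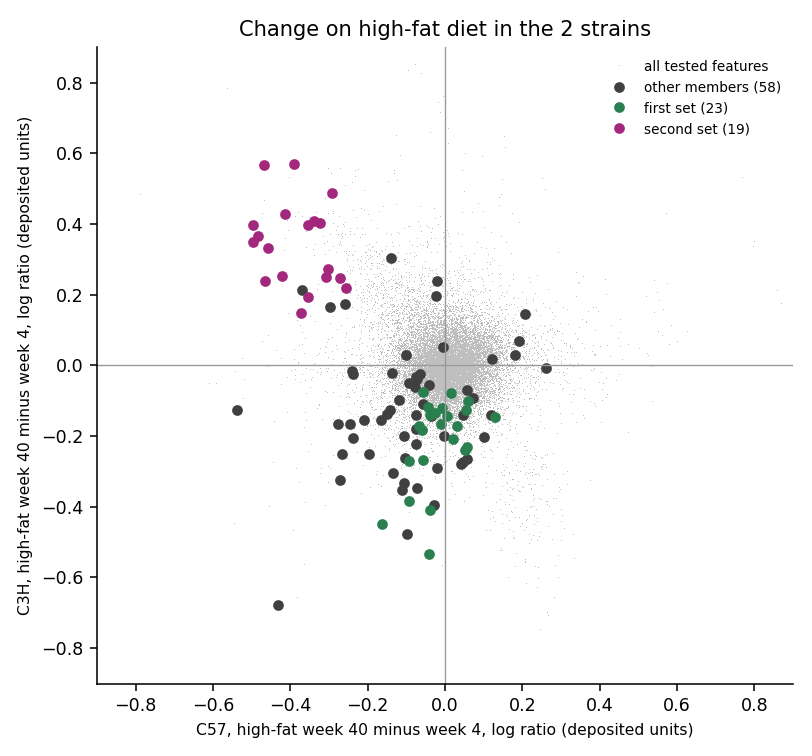
Difference between weeks 40 and 4 on the high-fat diet in C57 (horizontal axis) and in C3H (vertical axis), in deposited log ratio units, for each of the 100 features and for all tested features (small grey points, 5 of them outside the axes). The set of 19 lies at the upper left, lower in C57 and higher in C3H, while the set of 23 lies below 0 on the C3H axis and on both sides of 0 on the C57 axis.

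Features 6685 and 6999, both among the 10 lowest scores, formed one of the sets of 2. They correlated at 0.922, and both were at their highest in C57 chow after week 0 at week 8. Feature 6685 read 0.38, 0.44 and 0.08 there, against 0.04, -0.02 and -0.32 at week 4 and -0.05, -0.07 and -0.37 at week 24. Each array at week 8 was thus above the array of the same number at weeks 4 and 24. In C3H chow it read 0.13, 0.22 and -0.11 at week 4 and 0.10, 0.15 and -0.31 at week 8, with no such difference.

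Feature 22451 stood highest of the 10, at 1.39, 1.33 and 1.23 in C57 and 1.36, 1.33 and 1.20 in C3H at week 0. All 6 values lay above every later value of the same feature, of which the highest, also 1.20 when rounded, was C3H array 1 at week 4 of the high-fat diet. At week 40 of chow it read 0.73, 0.90 and 0.74 in C57 and 0.84, 0.79 and 0.78 in C3H. After 40 weeks of the high-fat diet it read 0.89, 0.95 and 0.09 in C57, and the array numbered 3 set that group's mean apart from the rest.

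The 100 lay on both sides of an even ratio between aorta and embryo. Their mean ratio over the 54 arrays had a median of 0.04, against 0.0012 for all tested features, and it was above 0 for 55 and below 0 for 45. The mean ratio was below -0.5 for 14 of them, against 4.16% of all features, and above 0.5 for 3, against 1.601%. Features on both sides of 0 were lower at the later week: on chow the median difference was -0.10 for the 55 and -0.12 for the 45, and on the high-fat diet it was -0.07 and -0.11.

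The 100 were also more variable between arrays of a group. The median residual SD was 0.162, against 0.0880 over all features, and it exceeded 0.1 for 90 of them, against 39.4% of all features. The rule, which takes the largest differences between means of 3 arrays, makes no allowance for that spread. All 54 arrays gave a value for 95 of the 100. The other 5, features 18530, 308, 20650, 9470 and 6024, lacked between 1 and 4 values each.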

How the data were processed

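The deposited values are log10 ratios by likely base only: the authors' table stops at exactly 2 and -2, and for the base, direction, dyes, background correction and normalization no statement is given in the sources used. The 7895 exact zeros, 0.682% of values, were treated as not measured. From each array its median over the 20694 features without a missing value was subtracted, and features with at least 2 values in each of the 18 groups were kept, which left out 267. A model of the group means was fitted to all 54 arrays in R 4.3.3, using limma 3.58.1 for moderated two-sided tests of contrasts, with Benjamini-Hochberg adjustment over 21179 features and calls at an adjusted p under 0.05. The fit was tested on simulated data.

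The members, lists and tests were chosen with earlier results of these data known. Features named are the 10 lowest scores, up to 3 called features per direction and test, and ranks 98 to 103. Also named are those called on chow with the term for arrays numbered 3 and those with missing values. Any other is said to be named after its values were seen or belongs to a set described. Gene lists and cell type markers were not tested because the annotation's names were not borne out, 85 of the 100 being listed there. Ratios give no signal over background, so precision is limited by how many arrays there are. Alternatives were a replicate block, a term for arrays numbered 3, numbers 1 and 2 only, series as a random block, zeros kept, no centring, quantile normalization, scaling, only the arrays of a contrast, other list sizes and leaving out single arrays or the 5 arrays of small spread.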

Additional observations from a re-analysis of the deposited data

How the results depend on the processing

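The number of the 100 features lower at the later week stayed above 50 under every alternative run for both diets and strains, from 60 to 95, and 0 were called for the diet difference in the change from week 4 to week 24 in all 34. For fully measured features, the replicate block and the term for arrays numbered 3 could not alter the direction, since every group holds each number. No label says that the replicate numbers pair the arrays. Same-number deviations correlated at a median of 0.369, with 83.0% of pairs above 0.1 and the lowest at -0.462. Deviations of different numbers had a median of -0.242, and 48 of 54 arrays correlated best with their own number. What the numbers stand for was not tested. The counts of called features that follow are given without the share of all features, which changes with the fit too. For the strains on high-fat, the main fit called 6.31% of all features lower in C57. With the term for arrays numbered 3 it was 14.9%. A count that differs between fits is therefore not by itself a result about the 100. With the replicate block, features called were 9 on chow (mean of strains), 1 in C57, 4 in C3H, 17 on the high-fat diet (mean), 1 in C57, 22 in C3H, 17 and 1 for the diet in C57 and C3H, 7 and 29 for the strains on chow and high-fat, and 4 for the strain difference in change. In the same order, the term for arrays numbered 3 gave 7, 1, 4, 16, 1, 22, 16, 1, 7, 28 and 3. Numbers 1 and 2 only gave 4, 1, 0, 13, 1, 15, 6, 0, 4, 15 and 7, with high-fat medians of -0.11 in C57 and -0.11 in C3H and 0.0906 for the strain difference in change, and 66 features stayed in the list. Series as a random block (correlation 0.467) gave 7 on chow, 5 in C3H, 16 on high-fat, 2 in C57, 20 in C3H, 0 and 2 for the strains and 16 for the strain difference in change. Quantile normalization gave 3 on chow, 3 on high-fat, 2 in C3H and 2 for the strains on chow, with medians of -0.11 in C57 and -0.0583 in C3H on high-fat, 0.0212 for the C57 diet difference and -0.0083 for the strain difference in change, the last 2 with the sign turned. Scaling gave 1 on chow and 2 for the strains on chow, with medians of -0.0520 in C3H on high-fat, 0.0268 for the C57 diet difference (sign turned) and 0.0169 for the strain difference in change. No centring gave 2 for the strains on chow, and only the arrays of a contrast gave 0 on high-fat, 0 in C3H and 2 for the strains on chow. Without the 5 arrays of small spread, an alternative chosen after seeing the data, calls were 1 on chow, 0 on high-fat, 0 in C3H and 0 for the strains on chow, with medians of -0.0593 on high-fat, -0.0694 in C3H, -0.0488 for the C57 diet difference and 0.0144 for the strain difference in change. The 50 lowest scores gave medians of -0.15 on chow and -0.11 on high-fat, and the 200 lowest -0.0508 on high-fat. Leaving out 1 array at a time, calls ran from 0 to 3 on chow (3 without C57 array 3 at week 4), 0 to 2 on high-fat, 0 to 1 in C57, 0 to 8 in C3H (8 without array 3 at week 40), 0 to 2 and 7 to 14 for the strains, and 0 to 14 for the strain difference in change. Medians then ran from -0.14 to -0.0581 on chow, -0.10 to -0.0440 in C57, -0.20 to -0.0509 in C3H, -0.11 to -0.0497 on high-fat, -0.13 to -0.0623 in C57, -0.19 to -0.0466 in C3H, -0.0401 to -0.0012 for the C57 diet difference and -0.0116 to 0.12 for the strain difference in change, where -0.0116 turns the sign. For the C3H diet difference, 32 to 59 features were lower. The cause of these changes was not tested.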
